A study of Homo sapiens with 3 samples.

Results

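The 5 keratin genes KRT5, KRT7, KRT8, KRT18 and KRT19 were followed in 1 pool of mesothelioma cells in which gene expression and chromatin accessibility had been read from the same cells. They were taken by name from the 36601 genes of the deposited matrix, and all 5 were present in it. The pool held NCI-H226_CL3, a clone of the NF2-null human mesothelioma line NCI-H226 that had been made resistant to the TEAD inhibitor GNE7883 with rising doses between 0.25 and 3 µM, and the parental NCI-H226 line. Each line had been given GNE7883 or the vehicle DMSO, and the 4 conditions were marked with hashtag antibodies and then run together. The resistant cells are 1 clone, and both lines lack NF2. The matrix names no hashtag among its features, so no cell could be given to a line or a treatment, and the conditions cannot be told apart here. All cells form 1 pooled sample with no replicate, and no p-value is given.

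Keratins are the intermediate filament proteins of epithelia and of mesothelium. A filament is built from pairs of an acidic type I keratin and a basic type II keratin, so both types are needed in a cell. KRT8 (type II) and KRT18 (type I) are the primary pair of simple epithelia. KRT7 (type II) and KRT19 (type I) are added in ducts, glands and mesothelium. KRT5 (type II) is the keratin of basal and squamous epithelial cells, where its partner is KRT14, and it is stained in the clinic as a marker of epithelioid mesothelioma. TEAD proteins are the DNA-binding partners of YAP and TAZ, which the NF2 product restrains through the Hippo pathway.

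Cells were barcodes that carried 1000 or more unique molecular identifiers (UMIs, 1 for each captured RNA molecule) and 1000 or more counts in accessibility peaks, with a mitochondrial share of UMIs up to 20%. Of 651860 barcodes, 8913 were cells, with a median of 1524 UMIs (1000 to 13064) and 4034 peak counts (1001 to 59374). Levels are UMIs out of 1000000 UMIs (CPM), and those of peaks likewise counts out of 1000000 peak counts (also CPM), and every interval is an exact 95% interval that covers counting error only. The mesothelial markers calretinin (CALB2, 771 CPM), mesothelin (MSLN, 79.0 CPM) and WT1 (68.4 CPM) were present. They belong to a list of 13 that summed to 1708 CPM. The 12 epithelial and squamous markers together came to 5.18 CPM, 3 of them had no UMI, and EPCAM had 4 UMIs. The cell type label is mesothelioma and the tissue label holds the word epithelial. These short lists do not decide between the labels, since many genes of epithelia, the keratins among them, are outside the lists.

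Promoter sequence was at hand for KRT5 and KRT8, the 2 of the 5 genes that matched the RefSeq promoter table (GRCh38.p14, 250 bases before to 50 after the annotated start). KRT5 is the keratin that varied most between groups of cells. The KRT8 window overlaps no peak but lies beside one that differed between groups. The KRT5 window is chr12:52520345-52520644 on the minus strand, with ATAAAA in capitals 29 bases before the start. The KRT8 window is chr12:52926420-52926719 on the minus strand, with the TEAD core letters GGAATG in capitals at base 18 after the start.

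KRT5: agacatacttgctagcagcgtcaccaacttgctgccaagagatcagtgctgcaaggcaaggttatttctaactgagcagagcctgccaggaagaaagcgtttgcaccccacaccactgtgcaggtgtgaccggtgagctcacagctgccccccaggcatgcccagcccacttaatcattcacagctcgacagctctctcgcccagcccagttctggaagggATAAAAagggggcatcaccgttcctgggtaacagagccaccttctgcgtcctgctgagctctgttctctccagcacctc

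KRT8: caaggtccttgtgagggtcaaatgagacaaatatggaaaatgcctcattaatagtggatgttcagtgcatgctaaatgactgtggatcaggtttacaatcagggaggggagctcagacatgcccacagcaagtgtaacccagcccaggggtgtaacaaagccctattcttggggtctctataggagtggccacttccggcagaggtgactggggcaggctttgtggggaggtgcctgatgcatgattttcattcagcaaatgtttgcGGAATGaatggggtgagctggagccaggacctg

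Both strands were searched for the TEAD core letters GGAATG, for the AP-1 letters TGANTCA, for the TATA box letters TATAAA, for the SP1 letters GGGCGG and for ATAAAA, the last added after the KRT5 sequence had been seen. Neither window held the AP-1, TATA box or SP1 letters. Among 35116 promoter windows of the same length, 16.0% hold ATAAAA, 14.0% the TEAD core, 7.71% the AP-1 letters, 11.5% the TATA box letters and 45.0% the SP1 letters. Each match is a description of letters and not of a binding site.

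KRT18, KRT8, KRT7 and KRT19 were among the most abundant transcripts of the pool, and KRT5 was scarce. The 5 genes together held 170079 UMIs, or 10253 CPM, which is 1.03% of all UMIs in cells. KRT18 had 68887 UMIs at 4153 CPM (4122 to 4184) and stood at place 18 among all genes. KRT8 had 2517 CPM (2493 to 2541), at place 33. KRT7 had 1826 CPM (1805 to 1846), at place 50. KRT19 had 1742 CPM (1722 to 1762), at place 55. No neighbouring pair in this order overlapped in its counting intervals. KRT5 had 263 UMIs at 15.9 CPM (14.0 to 17.9), at place 7389. Type I keratins gave 97781 UMIs, against 72298 for type II, a ratio of 1.35 (1.34 to 1.37). Ratios between genes are ratios of captured molecules, which were not divided by transcript length. KRT8 and KRT18 have many processed pseudogenes, their annotated loci adjoin on opposite strands, and the sources used here do not give how strand and shared reads were counted, so the split of reads between such copies is uncertain.

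The other keratins were close to silent. Of 50 further genes named KRT and a number, 32 had no UMI in any cell, which allows up to 3 counts, and the other 18 held 1779 UMIs in all. KRT10, the type I keratin of differentiating epidermis, had 57.1 CPM, and KRT80, a type II keratin, had 28.5 CPM, and these 2 alone passed 20 CPM. KRT14, the usual partner of KRT5, had 1 UMI. KRT17 had 20 UMIs and KRT15 had 67 UMIs, while KRT6A, KRT6B and KRT6C had none. Vimentin (VIM), the mesenchymal intermediate filament, had 589 CPM in the same cells.

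Free RNA, which is RNA that has left broken cells and is captured with every droplet, carried the same keratins, with KRT18 and KRT8 again the highest and KRT7 and KRT19 not separable from each other there (KRT7 per KRT19 1.03, 0.966 to 1.10). It was read from 412708 barcodes of 1 to 100 UMIs, with a median of 1 UMI and 810758 UMIs in all. KRT18 had 4153 CPM in cells and 5511 CPM in free RNA, a ratio of 0.754 (0.731 to 0.777). The ratio of cells to free RNA was 0.758 (0.723 to 0.794) for KRT19, 0.771 (0.736 to 0.807) for KRT7 and 0.820 (0.787 to 0.854) for KRT8. KRT5 had 15.9 CPM in cells and 12.3 CPM in free RNA, the second from 10 UMIs, and its interval of 0.688 to 2.71 includes 1. All 4 abundant keratins were thus lower in cells than in free RNA, and none reached the 1.5-fold used as the call here. Of 6853 genes compared, 9.27% were called lower and 32.0% higher in cells, and the median ratio was 1.28. Highly abundant genes mostly lay on the same side as the keratins: of 123 genes at 1000 CPM or more, 98 had a ratio below 1, with a median of 0.626. Mitochondrial UMIs made up 14.0% in cells and 12.2% in free RNA.

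**Figure D1:**
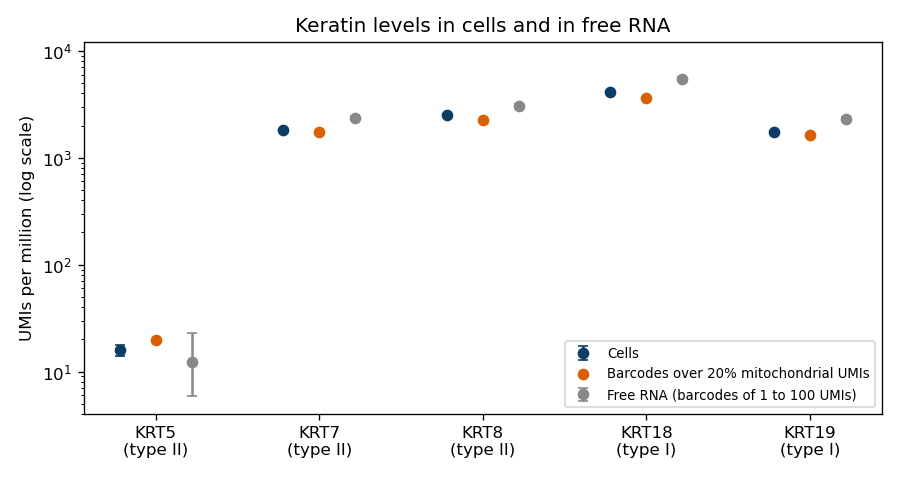
Levels of the 5 keratins in cells, in barcodes past both count minimums with over 20% mitochondrial UMIs, and in free RNA, in CPM on a log axis, with 95% Poisson intervals for cells and free RNA. KRT7, KRT8, KRT18 and KRT19 lie above 1000 in all 3 groups and are highest in free RNA, and KRT5 lies between 12.3 and 19.7.

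Because free RNA is so rich in keratin, the share of cells with a keratin UMI says little about which cells express it. After each cell was thinned to 1000 UMIs, KRT18 was found in 96.3% of cells, against 99.6% expected if every UMI were free RNA (99.0% unthinned). KRT8 was found in 88.2% (95.4% from free RNA alone, 95.3% unthinned). KRT7 was found in 79.9% (90.6% from free RNA alone, 90.2% unthinned) and KRT19 in 79.2% (90.0% from free RNA alone, 90.2% unthinned). KRT5 was found in 1.66% of cells (1.41 to 1.95), against 1.23% from free RNA alone (2.72% unthinned). No cell type that lacks keratins is known in the pool, so these shares are not read as expression. A thinned cell carried a median of 10 keratin UMIs (5 at the 10th and 16 at the 90th percentile), and 14 cells carried none. All 4 abundant keratins were seen together in 5006 thinned cells (56.2%), and all 5 in 100.

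Keratin counts were spread more widely across cells than the median gene of like level, but mostly within the range of such genes. The variance of KRT8 across thinned cells was 1.44 times its mean, where the median of 76 genes within 2-fold of its level was 1.15, and 93.4% of those genes lay below it. KRT18 had 1.62 (median of 25 like genes 1.29, 84.0% of them below it), KRT7 had 1.25 (1.14, 85.3%) and KRT19 had 1.20 (1.14, 77.7%). KRT7, KRT8, KRT18 and KRT19 all lay under the 95th percentile of their like genes, which was 1.41, 1.68, 2.13 and 1.41. KRT5 had 1.05 at a mean of 0.0172 UMIs per cell, above 96.8% of 4826 genes of like level. The balance of the 2 types varied little beyond counting error. In the 4601 thinned cells with at least 10 keratin UMIs, type I keratins made up 57.5% of them, with an SD across cells of 13.9 points where counting error alone gives 13.7 points.

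Across single cells, KRT8 and KRT18 went together most closely. The Pearson correlation of log2(count + 1) across the 8913 thinned cells was 0.26 for KRT8 with KRT18, and each was the other's closest gene among 1601 genes at 100 CPM or more. It was 0.18 for KRT7 with KRT18, 0.16 for KRT18 with KRT19, 0.14 for KRT7 with KRT8 and 0.13 for both KRT7 with KRT19 and KRT8 with KRT19. These are weak values from sparse counts of 1 library, given as a description of the 10 pairs. For scale, the 95th percentile over all genes was 0.069 for KRT8 and 0.097 for KRT18. KRT5 went most with KRT8 (0.058) and least with KRT7 (0.0054).

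The 5 genes closest to each keratin were largely the other keratins and ribosomal protein genes. RPS2 had 0.19 with KRT18, RPLP1 had 0.12 with KRT7, RPL41 had 0.18 with KRT18 and RPL13A had 0.12 with KRT19. SLPI, a secreted protease inhibitor, had 0.12 with KRT19 and 0.051 with KRT5. PKP2, a desmosomal plakophilin, and ETFB, a mitochondrial electron carrier, each had 0.048 with KRT5. At the other end stood the nuclear RNA MALAT1, at -0.27 with KRT18, -0.20 with KRT8, -0.18 with KRT7 and -0.12 with KRT19. With the levels of MALAT1, NEAT1, 86 ribosomal protein genes and mitochondrial RNA removed from each cell, an adjustment added after the data were seen, KRT8 with KRT18 came to 0.18, KRT7 with KRT18 to 0.11 and KRT5 with KRT8 to 0.053. Within the largest chromatin cluster alone, KRT8 with KRT18 came to 0.16.

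Chromatin clusters give groups of cells that were drawn without expression. Clustering on peaks gave 6 clusters of at least 100 cells, and 86 cells in a smaller one were left out. None takes a cell type name or is read as a line or a treatment. Cluster 1 (3879 cells) was shallow, with a median of 2429 peak counts, and had no gene set of its own, with 0.0446% of genes called higher and 0.0297% lower. Cluster 2 (1587 cells) was high in HMGA2, cluster 3 (1188 cells) in SFTPD, cluster 4 (1149 cells) in CYP24A1, cluster 5 (792 cells) in ADGRL3 and cluster 6 (232 cells) in INHBA. Each cluster was set against all other cells, and genes entered with 100 or more UMIs in both sums together and 20 CPM in the higher sum. A call is a 1.5-fold difference whose interval excludes 1.

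On the CPM scale, cluster 4 had the most keratin and cluster 3 the least. The 5 genes summed to 13022 CPM in cluster 4, 1.34 times the other cells (1.32 to 1.35). The sums were 8748 CPM in cluster 3 (0.833-fold), 9082 CPM in cluster 6 (0.881-fold), 9272 CPM in cluster 2 (0.883-fold), 9701 CPM in cluster 5 (0.941-fold) and 10468 CPM in cluster 1 (1.03-fold). Scaling by TMM shifted cluster 2 by 0.13 and cluster 6 by 0.10 on the log2 scale and the other clusters by 0.05 or less, and it turned no keratin's direction round in a cluster. With it the lowest place was no longer clear, since the keratins differed in it. KRT18 was 0.785-fold in cluster 2, 0.789-fold in cluster 3 and 0.809-fold in cluster 6. In the same order KRT7 was 0.825-fold, 0.840-fold and 0.901-fold, and KRT8 0.838-fold, 0.797-fold and 0.789-fold. KRT19 was 0.797-fold, 1.02-fold and 0.825-fold.

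Among the 4 abundant keratins, KRT8 and KRT18 stood furthest above the other cells in cluster 4. KRT18 had 5629 CPM in cluster 4 and 3873 CPM in the other cells, a ratio of 1.45 (1.43 to 1.48). KRT8 had 3387 CPM in cluster 4 and 2352 CPM in the other cells, a ratio of 1.44 (1.41 to 1.47). Both lay just under the 1.5-fold call, above 97.1% and 97.0% of genes compared in that cluster, and both moved with the cells taken. KRT18 was 1.60-fold and KRT8 1.55-fold in cells of at least 2000 UMIs, where both were called. In cells of 1000 to 2000 UMIs KRT18 was 1.29-fold and KRT8 1.30-fold, and at up to 10% mitochondrial UMIs KRT18 was 1.34-fold and KRT8 1.31-fold, none of them called. KRT19 was 1.15-fold (1.12 to 1.19) and KRT7 1.13-fold (1.10 to 1.16) in the same cells. The intervals of KRT7 and KRT19 lie wholly below those of KRT8 and KRT18. Beside this, mesothelial markers summed to 1908 CPM in cluster 4 and 1670.0 CPM in the other cells with 0 of 10 called, and epithelial and squamous markers to 4.55 CPM in cluster 4 and 5.31 CPM in the other cells. The median depth of cluster 4 was 2032 UMIs, against 1524 UMIs over all cells, and the part of depth in the difference was not tested. Over all cells, KRT18 had 4196 CPM in cells of 1000 to 1205 UMIs and 4105 CPM in cells of 2175 to 13064 UMIs.

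KRT7 and KRT8 lay on the same side of the other cells in clusters 2, 3 and 4 and parted in cluster 5. There KRT7 had 2114 CPM and the other cells 1794 CPM (1.18-fold, 1.14 to 1.22), while KRT8 had 2187 CPM and the other cells 2553 CPM (0.857-fold, 0.827 to 0.886). At up to 10% mitochondrial UMIs KRT7 was 0.995-fold in cluster 5, so that difference was lost, and KRT8 was 0.846-fold. KRT8 per KRT7 was 1.03 (0.987 to 1.08) in cluster 5 and 1.68 (1.62 to 1.74) in cluster 4, with 1.38 over all cells and 1.30 in free RNA. KRT19 differed from the pair in cluster 3, where it was 1.01-fold (0.980 to 1.05) while KRT18 was 0.784-fold (0.766 to 0.803) and KRT8 0.792-fold. KRT18 per KRT19 was 1.91 (1.84 to 1.98) in cluster 3 and 2.88 (2.79 to 2.97) in cluster 4. The share of free RNA in each cluster was not measured, and its part in these ratios was not tested.

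KRT8 per KRT18 was the steadiest of the ratios. It ran from 0.589 (0.565 to 0.614) in cluster 5 to 0.639 (0.621 to 0.657) in cluster 2, with 0.606 over all cells and 0.557 (0.530 to 0.585) in free RNA. A finer clustering gave 14 clusters of at least 100 cells, across which KRT8 ran from 1872 to 3532 CPM and KRT18 from 3018 to 5674 CPM, while their ratio stayed between 0.580 and 0.648. Over these 14 clusters Pearson's r and Spearman's rho were both 0.99 for KRT8 with KRT18. They were 0.53 and 0.54 for KRT7 with KRT8, 0.80 and 0.79 for KRT18 with KRT19, and 0.42 and 0.56 for KRT7 with KRT19. The 14 points share 1 library and differ in depth, so the values are a description.

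**Figure D2:**
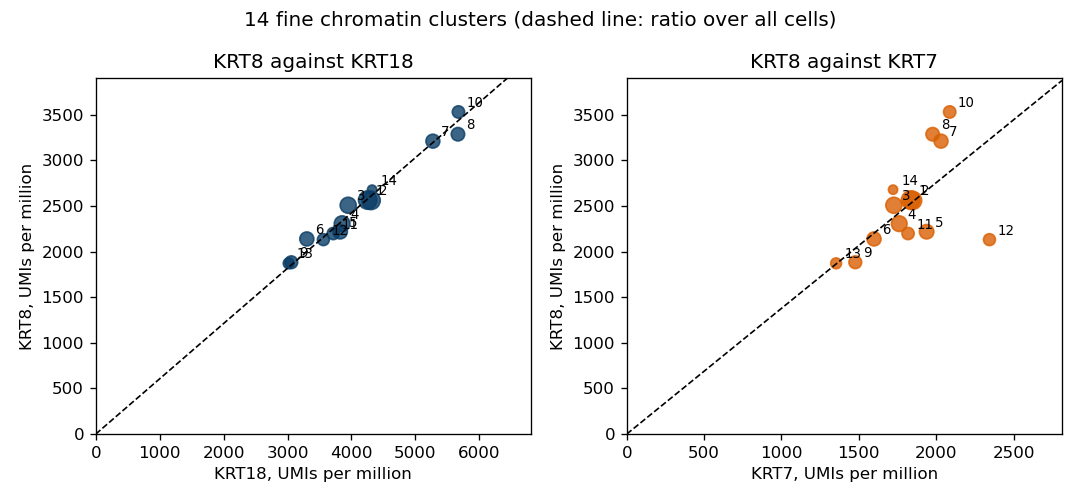
KRT8 against KRT18 (left) and against KRT7 (right) in 14 fine chromatin clusters, each in CPM. Points are numbered by cluster with their area growing with the number of cells, and the dashed line is the ratio over all cells. KRT8 and KRT18 lie along the line, while fine cluster 12 has the most KRT7, at 2344 CPM, with KRT8 at 2132 CPM.

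KRT5 varied most. It had 79 UMIs at 29.9 CPM (23.7 to 37.3) in cluster 4, against 13.2 CPM in the other cells, a ratio of 2.27 (1.72 to 2.97). In cluster 6 it had 20 UMIs at 28.7 CPM (17.5 to 44.3), against 15.3 CPM in the other cells, a ratio of 1.88 (1.13 to 2.96). These were the 2 calls among the 26 comparisons of a keratin with a cluster that met the floor, and KRT5 met it only through the clusters where it was high. The 4 comparisons under the floor were all of KRT5, and 3 of them had intervals that exclude 1. Of all genes, 2.50% were called higher in cluster 4 and 8.01% in cluster 6. KRT5 had 8.37 CPM in cluster 2 and 17.7 CPM in the other cells (0.472-fold), and 6.74 CPM in cluster 5 and 16.8 CPM in the other cells (0.400-fold, 11 UMIs), both under the floor, as was cluster 3 with 10.9 CPM, against 16.7 CPM in the other cells (0.657-fold).

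**Figure D3:**
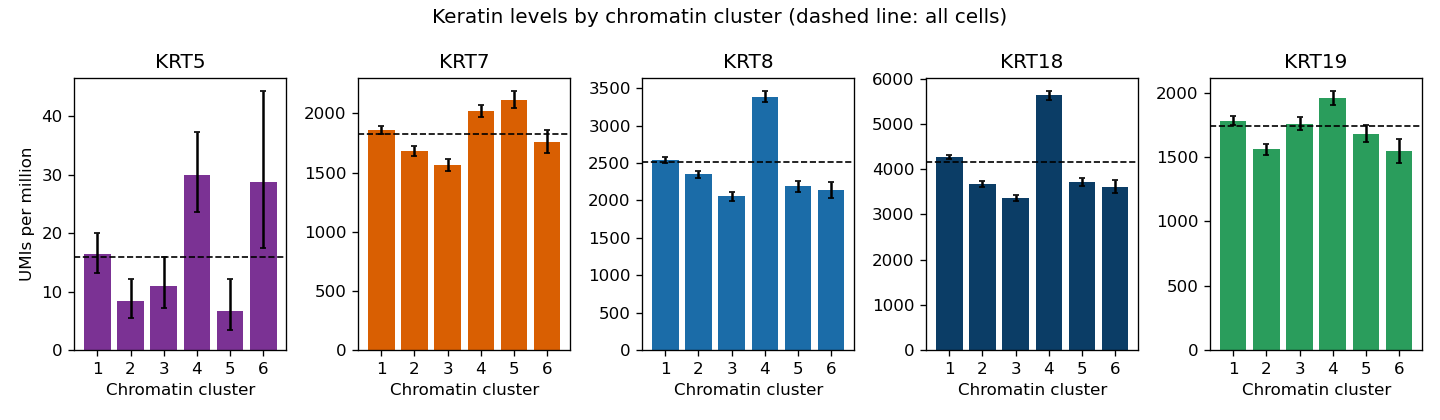
Level of each keratin in chromatin clusters 1 to 6, in CPM from 0, as bars with 95% Poisson intervals, and over all cells as a dashed line. KRT8 and KRT18 stand out in cluster 4, KRT7 is highest in cluster 5 at 2114, and KRT5 is at 29.9 in cluster 4 and 28.7 in cluster 6.

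The calls of KRT5 depended on where the clusters were drawn. In the finer clustering the highest level was in fine cluster 10, with 41 UMIs in 332 cells at 55.5 CPM (39.9 to 75.3), and the lowest value in fine cluster 6, with 5 UMIs at 3.34 CPM (1.09 to 7.80). Of the cells of fine cluster 10, 314 were in cluster 4. Fine cluster 8, with 466 of its 469 cells in cluster 4 and the highest CYP24A1 at 339 CPM, had KRT5 at 16.3 CPM (10.1 to 25.0), close to the 15.9 CPM of all cells. KRT8 was high in both, at 3532 CPM in fine cluster 10 and 3288 CPM in fine cluster 8. In clusters drawn from expression without keratins, the one that best matched cluster 4 shared 0.32 of their joint cells with it and had KRT5 at 0.773-fold, with KRT8 at 1.34-fold and KRT18 at 1.36-fold. Among cells of at most 10% mitochondrial UMIs, KRT5 in cluster 4 was 1.60-fold and no longer called, and cluster 6 had no KRT5 UMI.

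**Figure D4:**
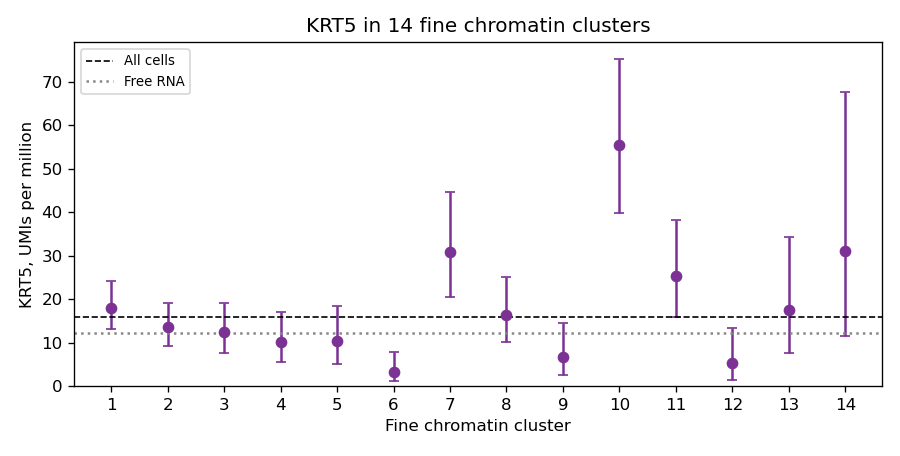
KRT5 in the 14 fine chromatin clusters, in CPM with 95% Poisson intervals. Fine cluster 10 stands at 55.5, while the dashed line of all cells is at 15.9 and the dotted line of free RNA at 12.3.

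Because cluster 1 was shallow, cells were also clustered with each cell scaled to unit length, an alternative added after the data were seen, in which the median depth of clusters ran between 1435 and 1653 UMIs. The cluster of 1845 cells that best matched cluster 4 shared 0.56 of their joint cells with it. KRT18 was there at 5364 CPM, against 3806 CPM in the other cells (1.41-fold, 1.39 to 1.43), and KRT8 at 3178 CPM, against 2327 CPM (1.37-fold, 1.34 to 1.40). KRT5 had 28.4 CPM there and 12.3 CPM in the other cells (2.32-fold, 1.79 to 2.99), from 105 UMIs. KRT8 per KRT7 was 1.12 in the cluster that best matched cluster 5 (0.49 of joint cells shared) and 1.59 in that which best matched cluster 4.

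Partners of the keratins were counted in 68 genes of 6 lists: other intermediate filaments, desmosomes, plakins and hemidesmosomes, proteins that bind keratins or act in their turnover, epithelial junctions, and transcription factors that act on keratin genes. In cluster 4, 4 of the 36 compared were higher (median log2 ratio 0.07) and none lower, where 2.50% of all genes were higher and 3.31% lower. PKP2, which links desmosomal cadherins to desmoplakin, had 228 CPM in cluster 4 and 143 CPM in the other cells (1.60-fold). Periplakin (PPL), a plakin that binds keratin filaments, had 76.5 CPM in cluster 4 and 44.8 CPM in the other cells (1.71-fold). Integrin beta 4 (ITGB4), the hemidesmosome receptor to which keratins attach through plectin, had 656 CPM in cluster 4 and 427 CPM in the other cells (1.54-fold). Occludin (OCLN), of tight junctions, had 47.7 CPM in cluster 4 and 22.0 CPM in the other cells (2.17-fold).

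In cluster 2, where all 5 keratins were below the other cells, 2 of the 36 were higher and 3 lower, with 4.46% and 3.24% over all genes. VIM had 815 CPM in cluster 2 and 532 CPM in the other cells (1.53-fold), and FOSL1, an AP-1 subunit, 114 CPM in cluster 2 and 57.0 CPM in the other cells (2.00-fold). PKP2 was 0.637-fold, PPL 0.557-fold and the desmosomal cadherin DSC3 0.526-fold. The mesothelial markers CALB2, UPK3B and LRRN4 were also lower there, 3 of the 10 compared, and the list summed to 1286 CPM in cluster 2 and 1814 CPM in the other cells. Whether this has a part in the keratin levels was not tested. In cluster 3, 3 of 39 were higher (DSC3 at 1.69-fold, the epithelial transcription factor ELF3 at 3.04-fold and claudin 1, CLDN1, at 1.80-fold) and 6 lower, among them plectin (PLEC, 0.622-fold), with 3.40% and 7.49% over all genes. In cluster 5, 1 of 37 was higher, from the epithelial junction list, and 5 were lower, where 4.90% and 5.59% of all genes were called. Among the lower were VIM at 0.644-fold and the desmosomal cadherin DSG2 at 0.615-fold. In cluster 6, 3 of 37 were higher and 2 lower, where 8.01% and 4.74% of all genes were called. The higher were 1 gene of the desmosome list and 2 of the transcription factors, and the lower were PPL at 0.421-fold and ITGB4 at 0.644-fold. In cluster 1 none of 36 was called in either direction.

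Against free RNA, 9 of 36 partners were called higher in cells and none lower, where 32.0% of all genes were called higher and 9.27% lower. They included the plakins dystonin (DST, 749 CPM in cells and 389 CPM in free RNA) and MACF1 (1003 CPM in cells and 561 CPM in free RNA), and N-cadherin (CDH2, 538 CPM in cells and 270.1 CPM in free RNA). VIM had 589 CPM in cells and 639 CPM in free RNA, a ratio of 0.922 (0.844 to 1.01).

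Accessible chromatin was read in the peaks within 50 kb of each gene's interval. There were 94 such peaks, 28 of them in the windows of both KRT8 and KRT18, whose starts lie 1003 bases apart in the deposited annotation. The KRT8 window held 27791 counts in 37 peaks, that of KRT18 19078 in 28, that of KRT7 16736 in 25, that of KRT19 12929 in 18 and that of KRT5 4940 in 14. The KRT5 window was thus the least accessible of the 5. The peak at the KRT18 start, chr12:52948523-52949386, had 2380 counts and was open in 12.5% of cells. The KRT7 start peak, chr12:52232653-52233575, had 1919 counts (10.5% of cells), and the KRT19 start peak, chr17:41527943-41528776, had 1279 counts (7.02%). The peak at the outermost KRT8 start, chr12:52949742-52950421, had 772 counts (4.63%). It does not stand for all KRT8 starts, which the deposited annotation spreads over 43.3 kb. Just past the other end of that stretch, 44.7 kb from the outermost start, chr12:52904711-52905603 had 2185 counts (11.4%). That peak was called in no cluster, with ratios from 0.891-fold to 1.07-fold. Which KRT8 start was in use was not tested. KRT5's start peak, chr12:52520045-52520861, which covers the promoter printed above, had 181 counts and was open in 1.18% of cells, where the median peak of the whole matrix had 90 counts. Positions are those of the deposited peaks, on the GRCh38 build named in the processing notes.

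Several of the strongest peaks lay away from the starts. The strongest near KRT19 lay 19.5 kb upstream of its start, at chr17:41547404-41548268, with 2659 counts. The strongest near KRT8 and KRT18 lay at chr12:52945464-52946348 with 2649 counts, 2.96 kb upstream of the KRT18 start and 3.97 kb inside KRT8. Close behind was chr12:52873891-52874791, with 2644 counts, which is in the window of KRT8 only and 75.5 kb downstream of its outermost start. Inside the 43.3 kb over which the deposited annotation spreads KRT8's starts there were 12 peaks. The printed KRT8 promoter itself overlapped no peak and lay between one at chr12:52924906-52925776 with 2107 counts and one at chr12:52927017-52927868 with 873 counts. Near KRT5 the strongest was chr12:52496343-52497237, 23.6 kb downstream of its start, with 1197 counts.

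**Figure D5:**
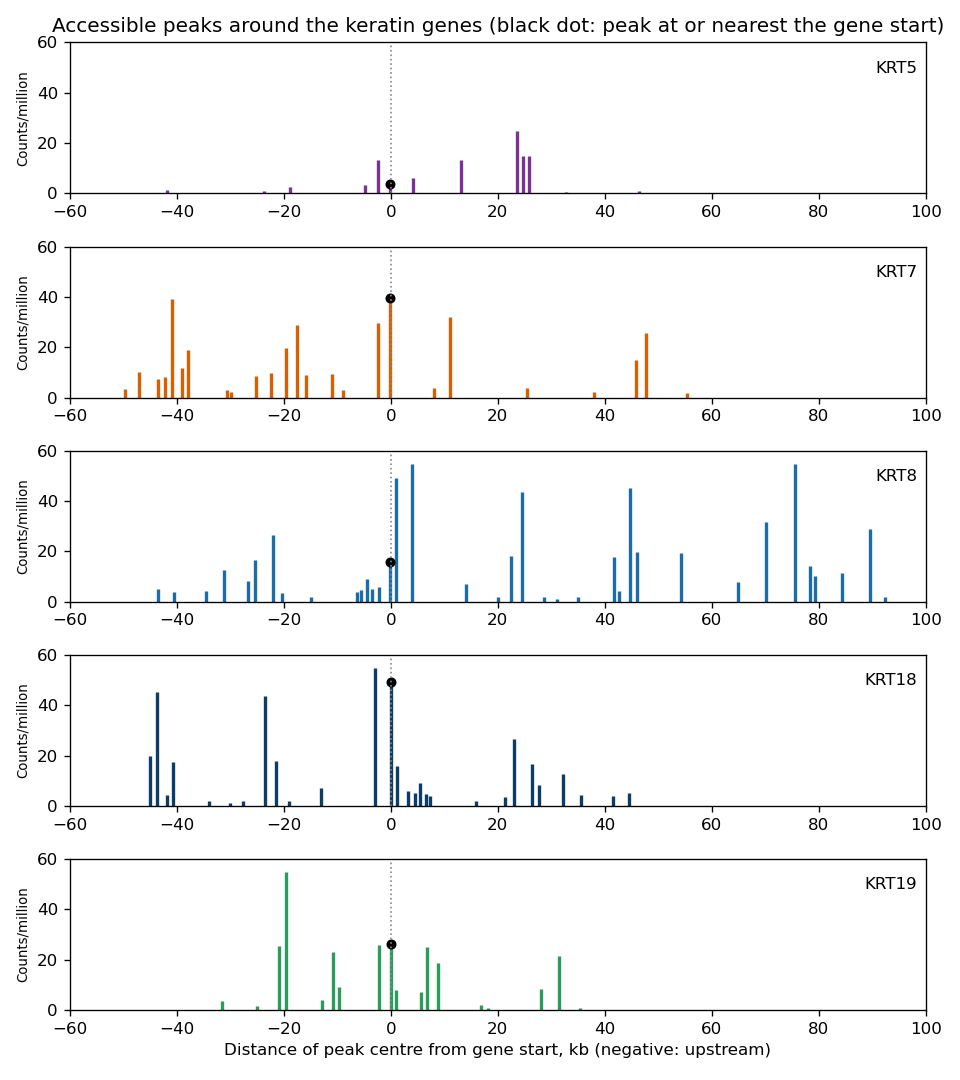
Accessibility of each peak within 50 kb of the 5 keratin genes, in CPM of peak counts, by distance of the peak's centre from the gene start in kb, with upstream to the left and the peak at or nearest the start marked by a dot. Start peaks of KRT7, KRT18 and KRT19 are tall, that of KRT5 is low, and KRT8 and KRT18 share peaks since their windows overlap.

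Between clusters, the start peaks of KRT7, KRT18 and KRT19 were called in none of the 6. Start peaks had 2 calls in 30 comparisons (6.67%), both in cluster 2, and the other peaks 47 in 444 (10.6%). Over all peaks of the matrix, 7.95% were called higher and 10.2% lower in cluster 2, and 1.29% and 1.16% in cluster 1. Such calls were thus common among all peaks, and these counts are not read as a trait of the keratin peaks or of their starts. The clusters were drawn from peaks, so their differences in accessibility are a description. Drawing the clusters without the peaks near the keratins left the count of calls over the 6 clusters at 49 of 474 comparisons. Of the 79 peaks with at least 100 counts, 9 were called higher in cluster 4 (11.4%) and 1 lower (1.27%), with 5.91% and 4.07% over all peaks. Of the 9, 6 were in the KRT8 window and the same 6 in that of KRT18. The peak at chr12:52927017-52927868, the one just above the printed KRT8 promoter, had 32.0 CPM in cluster 4 and 15.3 in the other cells (2.09-fold, 1.68 to 2.58). The peak at chr12:52969891-52970647 had 8.07 CPM in cluster 4 and 2.59 CPM in the other cells (3.12-fold, 1.99 to 5.07). The KRT18 start peak was 1.08-fold in cluster 4 and the outermost KRT8 start peak 0.756-fold, neither called. Summed over the window, accessibility in cluster 4 was 1.15-fold (1.09 to 1.21) for KRT18, 1.14-fold (1.10 to 1.19) for KRT8, 1.09-fold for KRT7 and 1.08-fold for KRT19.

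Around KRT5, accessibility and RNA lay on the same side in clusters 4 and 2 and not in clusters 3 and 6. In cluster 4 the window summed to 1.26-fold (1.14 to 1.39), with the peak at chr12:52496343-52497237 at 1.64-fold and that at chr12:52522288-52523206, upstream of the start, at 1.81-fold (1.41 to 2.35). In cluster 2 the window summed to 0.758-fold (0.682 to 0.842), and the start peak had 18 counts, at 1.70 CPM, against 4.31 CPM in the other cells (0.395-fold, 0.175 to 0.792). In cluster 6, where KRT5 RNA was called higher, the window summed to 0.871-fold (0.710 to 1.06) and 2 of its 9 compared peaks were lower. In cluster 3, where KRT5 RNA was 0.657-fold (0.420 to 0.987), the window summed to 1.12-fold (1.01 to 1.24). In cluster 5, where KRT5 RNA was 0.400-fold, the window summed to 0.989-fold (0.875 to 1.12).

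Of the other clusters, cluster 6 stood furthest above its background in lower calls. It had 1 higher (1.27%) and 9 lower (11.4%) of the 79 peaks, with 4.70% and 2.99% over all peaks. Of the 9 lower, 4 lay near KRT7, and these had from 0 to 12 counts in cluster 6. The KRT7 window as a whole was not lower there, at 1.02-fold (0.928 to 1.13), and the KRT7 start peak was 1.36-fold (1.04 to 1.76). Cluster 2 had 5 higher (6.33%) and 11 lower (13.9%) of the 79, with 7.95% and 10.2% over all peaks, and the outermost KRT8 start peak among the higher at 1.64-fold (1.32 to 2.06). Cluster 3 had 3 and 3 (5.98% and 8.41% over all peaks), with chr12:52230336-52231214, 2.47 kb upstream of the KRT7 start, at 0.501-fold (0.389 to 0.648). Cluster 5 had 2 and 5 (6.46% and 9.03% over all peaks), and cluster 1 none (1.29% and 1.16%).

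Within single cells, a count in the start peak hardly went with the level of the gene. Cells with a count in the KRT7 start peak had 1923 CPM of KRT7 and cells without one had 1812 CPM (1.06-fold, 1.03 to 1.10). The ratio was 0.963 for KRT18, 0.953 for KRT19, 0.904 for KRT8 and 1.29 (0.417 to 3.06, from 5 UMIs) for KRT5. For KRT8 the peak used was that at its outermost start, and peaks near its other starts were not set against its level. Cells with a count were also deeper, with a median of 7237 peak counts for KRT7, against 3773 without.

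Out of all UMIs, keratin levels changed little between 5 and 20% mitochondrial UMIs, and the direction depended on the scale. The 5 genes summed to 10085 CPM at 15 to 20% mitochondrial UMIs and 10429.9 CPM at 5 to 10%, a ratio of 0.967 (0.953 to 0.981). With mitochondrial genes left out of the total the same ratio was 1.07. On that scale the sum was 11379.8 CPM at 5 to 10%, 11910.0 CPM at 10 to 15% and 12193 CPM at 15 to 20%. The 69 barcodes at up to 5% were lower on either scale, with 8826 CPM of all UMIs and 9098.9 CPM outside mitochondrial genes. KRT18 had 3359 CPM of all UMIs (3038 to 3705) in them and 4317 CPM (4234 to 4402) at 5 to 10%. Barcodes over 20%, which were not counted as cells, had 9318 CPM of all UMIs and 12284 CPM outside mitochondrial genes, with KRT18 at 3656 CPM and KRT5 at 19.7 CPM of all UMIs.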

How the data were processed

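The deposited matrix holds whole-number counts of UMIs per gene and of transposition events per peak, unfiltered, per the file headers, which name Cell Ranger ARC 2.0.0. The submitters' processing notes add MACS2, ArchR 1.0.3, Cell Ranger 2.0.0 and the build GRCh38.p10, with no roles, and the sources used here do not say how peaks were called. In all there were 54494965 UMIs and 117898281 peak counts, and in cells 16588148 UMIs and 48410778 peak counts. Of 11130 barcodes past both minimums, 2217 exceeded the mitochondrial limit. Of peak entries 87.9% were even, so intervals treat every 2 counts as 1 event.

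Counts were summed over groups of cells and scaled to CPM. Levels carry exact Poisson, shares exact Clopper-Pearson and ratios exact conditional binomial 95% intervals, not adjusted for the number compared. Only the ratio intervals of gene sums were tried on simulated data. Those data were Poisson counts, so they cannot show how the intervals hold where cells vary more than that. PCR duplicates of peak fragments may remain. Peaks in at least 20 cells (182179) were coded as present or absent, given TF-IDF weights, reduced to 30 components, of which 1 was left out for a correlation with depth over 0.75, and clustered with 15 neighbours, Jaccard weights and Leiden resolution 0.5 (seed 0, leidenalg 0.10.2). This weighting was chosen among several by cluster sizes, after the data were seen. Doublets were not removed (1 alternative drops the 5% deepest cells). The 3 libraries share 1 pool, and the hashtag and accessibility libraries carry no condition here.

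The keratins, the marker and partner lists and the comparisons were chosen with earlier results of these data known. The text names the 5 keratins, other keratins over 20 CPM, the 5 genes most correlated with each keratin and the start peak of each gene. Of the partners past 1.5-fold and of the 3 strongest other peaks per gene it names only some. A few others were chosen after their values were seen. TMM factors came from edgeR 4.0.16 (R 4.3.3) and the rest from numpy 2.4.6, scipy 1.17.1 and scikit-learn 1.9.0.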

Additional observations from a re-analysis of the deposited data

How the results depend on the processing

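No paired analysis was possible because the cells form 1 pooled sample with no replicate. The summed keratin level of 10253 CPM was 10187 CPM with minimums of 500, 10161 CPM with minimums of 2000, 10353 CPM at most 10% mitochondrial UMIs, 10304 CPM without the 5% deepest cells and 11924 CPM outside mitochondrial genes. The ratio to free RNA of 0.773 was 0.790 outside mitochondrial genes and 0.898 against barcodes of over 100 and under 1000 UMIs, the last added after the data were seen. The 2 calls of a keratin in a cluster became 5 with no CPM floor, 1 at resolution 1.0, 1 with clusters from expression, 4 in cells of at least 2000 UMIs, 0 at most 10% mitochondrial UMIs and, added later, 1 in cells of 1000 to 2000 UMIs. KRT5 in cluster 4 was then 0.773-fold with clusters from expression, and in cluster 6 it had 0 UMIs at most 10% mitochondrial UMIs; the cause was not tested. The correlation of KRT8 with KRT18 of 0.26 was 0.38 in cells of at least 2000 UMIs, 0.35 without thinning, 0.16 within the largest cluster and 0.18 with the adjustment for MALAT1, NEAT1, ribosomal and mitochondrial RNA. Among the 5 closest genes of each keratin, 13 entries were other keratins, and 7 within the largest cluster. The mitochondrial ratio of 0.967 became 1.07 outside mitochondrial genes, whose UMIs are part of the total on the first scale only. The 49 peak calls were 18 in windows of 10 kb and 86 in windows of 100 kb, which hold fewer and more peaks. Of 505 values of single genes and pairs under an alternative, 328 kept within their interval and call and 166 moved outside their interval. A call was gained by 6 and lost by 3. The other 2 reversed, both of them those of KRT5 given here.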
